A study of Mus musculus with 9 samples.

Results

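The 6 mice that carried a mutation in Shmt1, in 1 copy or in both, were set as 1 group against 3 wild-type mice, to find expression differences in the proximal colon that both carrier genotypes share. The members are the 9 arrays of the study, chosen by genotype alone: 3 titled heterozygous and 3 titled mutant for cSHMT, the older name of the Shmt1 product, and 3 titled wild-type. All 9 arrays of the series therefore entered. Every mouse was of the C57Bl/6 strain after 10 generations of backcrossing, was 9 weeks old, and had eaten an AIN-93G diet without folate and choline since weaning at 3 weeks. Its duration is 6 weeks per the sample characteristics but 5 weeks per the growth protocol. They give neither the kind of mutation nor whether the allele still makes protein. No mice on a diet with folate and choline are in the series, so each value belongs to colon under the deficient diet.

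Shmt1 encodes cytosolic serine hydroxymethyltransferase, which moves a carbon unit between serine and tetrahydrofolate. The product, methylenetetrahydrofolate, is used by thymidylate synthase to make thymidylate for DNA, and after reduction it supplies methyl groups for the methionine cycle. Choline is another source of methyl groups, so a diet lacking both nutrients narrows both supplies. A second enzyme, encoded by Shmt2, carries out the same reaction in mitochondria.

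Signals of 22626 probe sets, short-oligonucleotide sets that each read 1 transcript region, were available after control probe sets were removed, and 13576 were bright enough to test. Array profiles were alike: the 36 pairwise correlations of log2 signal ran from 0.9838 to 0.9932. Precision is limited by having 3 arrays per genotype. The colonocyte enzyme Car1 read between 4900.9 and 7366.3 signal units in the 9 colons, and the goblet cell lectin Zg16 between 6786.3 and 10360.9; both are markers of colon epithelium. The beta-actin signal at the 3' end over that at the 5' end, a measure of shortened RNA, lay between 2.52 and 5.02 in wild-type and between 2.57 and 4.84 in carriers. This ratio followed the replicate number in each genotype. The first wild-type, heterozygous and mutant mice had 5.02, 4.45 and 4.84, the second 3.15, 3.05 and 3.75, and the third 2.52, 2.57 and 2.73.

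No probe set passed a Benjamini-Hochberg adjusted p of 0.05 in carriers against wild-type, in limma's fit with 2 groups. The share called was 0% in each direction. Below an unadjusted p of 0.05 lay 677 probe sets, 4.99% of those tested: 389 with higher values in carriers, 2.87%, and 288 with lower values, 2.12%. A stricter description asks that all 6 carriers lie on one side of all 3 wild-type mice on the normalized scale. This held for 163 probe sets above wild-type, 1.2%, and for 167 below, 1.23%, together 330 or 2.43%. A random order of the 9 arrays would give shares of about this size, and the 4.99% is likewise close to its threshold of 0.05. Lack of overlap by itself therefore does not mark a gene as changed in carriers. Without any threshold, 49% of tested probe sets had a difference above 0. Because no call was made, "higher" and "lower" below describe measured values, and the genes named are the 12 per direction with the smallest p among those without overlap.

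Shmt1 itself was lower in every carrier on 1 of its 4 probe sets. On 1425177_at the wild-type mice gave 564.3, 575.7 and 644.1 signal units, the heterozygous mice 297.9, 274.4 and 337, and the mutant mice 116.9, 120 and 113.1. The heterozygous mean was 51% of the wild-type mean and the mutant mean 19.6%, so the 3 genotypes were fully separated. The log2 difference of carriers from wild-type was -1.57 (SE 0.329), with an unadjusted p of 0.000439 and an adjusted p of 0.678. In the fit with 3 groups, where the gap between heterozygous and mutant mice no longer counts as spread, the adjusted p of the same difference was 0.000202. The gap between mutant and heterozygous was -1.25 with an adjusted p of 0.00939 in that fit. On this probe set the values thus follow the labels of both carrier genotypes.

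The other Shmt1 probe sets separated the mutant mice more clearly than the heterozygous ones. On 1425179_at, the brightest on average, wild-type mice read 529.3, 463.3 and 487.9, heterozygous mice 495.6, 388.5 and 369.7, and mutant mice 246.3, 287.4 and 241.4. One heterozygous mouse therefore lay inside the wild-type range, and the pooled difference was -0.57 (SE 0.217, adjusted p = 0.973). Mutant minus heterozygous was -0.64 there, with an adjusted p of 0.5 in the fit with 3 groups. On 1425178_s_at that gap was -0.41, with an adjusted p of 0.623. The pooled difference on 1425178_s_at was -0.59 (SE 0.155, adjusted p = 0.973), again with 1 heterozygous mouse, at 307.9, above the lowest wild-type mouse, at 305.9. The fourth, 1422198_a_at, was too dim to be tested, at 22.4 to 27 units in wild-type and 3.8 to 33.2 in carriers. Where the mutation lies relative to these probe sets is not stated in the labels.

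**Figure D1:**
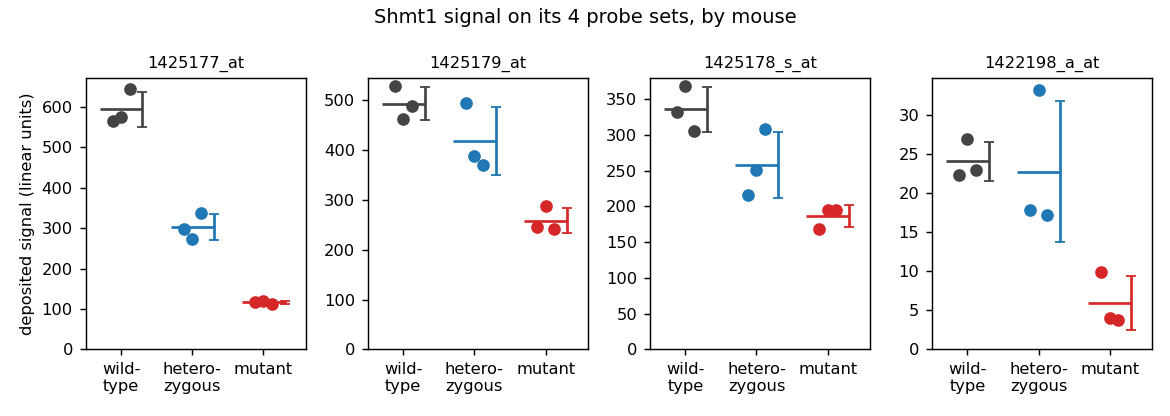
Deposited signal of Shmt1 in linear units on its 4 probe sets, 1 point per mouse, with the mean of each genotype as a horizontal line and the SD as a bar beside it. Only on 1425177_at do all 6 carriers, at 113.1 to 337, lie below all 3 wild-type mice, at 564.3 to 644.1; on the dim 1422198_a_at 1 heterozygous mouse, at 33.2, lies above them.

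Among the genes lower in all carriers, Psmd3 had the smallest p of the whole array. It encodes a subunit of the regulatory particle of the proteasome. The wild-type mice gave 1061.5, 1095.1 and 1110.6 units, the heterozygous mice 572.4, 525.1 and 777.2, and the mutant mice 515.1, 475.4 and 690.7. The wild-type values were tight and the highest carrier stayed far below them. The carrier mean was 54.4% of the wild-type mean, and the log2 difference was -0.89 (SE 0.135), with an unadjusted p of 2.4e-05 and an adjusted p of 0.326. Heterozygous mice differed from wild-type by -0.82 and mutant mice by -0.96, and the gap between them, -0.15, had an adjusted p of 0.816.

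Ighm, the heavy chain of immunoglobulin M, came next on 1427351_s_at. Wild-type mice read 851.2, 1078.1 and 667.6, heterozygous mice 255.9, 418.3 and 352.8, and mutant mice 466.1, 518 and 431.4. The log2 difference was -1.07 (SE 0.2), with an unadjusted p of 0.000162 and an adjusted p of 0.55. Here the heterozygous mice were the lower of the carriers, and the mutant mice exceeded them by 0.46 (adjusted p = 0.655). Of the 7 other tested Ighm probe sets, 1427329_a_at also kept all carriers below wild-type, at -0.53, but only after normalization. In the deposited signals its highest carrier, at 111.8, was above the lowest wild-type mouse, at 110.9. Another 5 had a pooled difference above 0, and 1425385_a_at ran from 2.6 to 2864.8 units within the carriers. The Ighm probe sets therefore had no single direction.

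Galnt10 encodes an enzyme that starts mucin-type O-glycosylation by adding N-acetylgalactosamine to proteins. Its probe set 1418194_at gave 210.4, 221 and 187.2 units in wild-type, 133.5, 145.7 and 149.7 in heterozygous and 111.3, 128.9 and 131.9 in mutant mice. All carriers fell in a narrow band under wild-type, with a log2 difference of -0.58 (SE 0.121, adjusted p = 0.678). Its other probe set, 1418195_at, differed by 0.01 (SE 0.152) with full overlap, so the lower signal is seen on 1 of 2 readings of the gene.

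Batf2, a basic leucine zipper transcription factor induced by interferon, read 217.6, 216.6 and 252.1 in wild-type, 124.5, 163 and 167.4 in heterozygous and 175.6, 144.9 and 185.3 in mutant mice. The difference was -0.49 (SE 0.129, adjusted p = 0.973), with the groups apart but close at their nearest mice. 2210407C18Rik was the brightest gene of the set. It gave 4904.9, 4736.5 and 4476.3 in wild-type, 2598.7, 3985.6 and 3442.1 in heterozygous and 1886.2, 2393.2 and 1783.4 in mutant mice. Every mutant mouse lay below every heterozygous mouse, and the mutant minus heterozygous difference, -0.74, had an unadjusted p of 0.000941 and an adjusted p of 0.324. The pooled difference from wild-type was -0.84 (SE 0.23, adjusted p = 0.973).

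The remaining genes in this direction differed less. Gal, the neuropeptide galanin of enteric neurons, read 1112.6, 1261.6 and 1172.9 in wild-type against 629 to 1075.2 in carriers, a log2 difference of -0.47. Csrp2, a LIM-domain protein of smooth muscle, read 3394, 2950.5 and 2945.2 in wild-type against 2274 to 2724.2 in carriers, at -0.26 the smallest difference of the 12. Their SEs were 0.132 for Gal and 0.0715 for Csrp2, the latter the smallest of the 12. Myl4, a myosin light chain, differed by -0.48, Phf21a, a reader of unmethylated histone tails in a corepressor complex, by -0.43, Akap2, an anchor of protein kinase A, by -0.40, and Tor1aip2, an endoplasmic reticulum partner of torsin ATPases, by -0.33. For Phf21a and Akap2 the groups overlapped in the deposited signals and were apart only after normalization. A second, brighter Phf21a probe set, 1418391_at, differed by -0.08 with overlap. The brightest Tor1aip2 probe set, 1435526_at, had the opposite sign, at 0.16, while 1418115_s_at and 1448958_at were at -0.20 and -0.19, all with overlap. The first gene outside the 12 was Olfm1, at -0.36 with a p of 0.00623, close to Myl4 with a p of 0.00586.

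The higher direction was led by Poldip3, whose product binds a DNA polymerase subunit and takes part in messenger RNA export and translation. On 1455788_x_at wild-type mice gave 210.9, 240.4 and 228.5, heterozygous mice 417.2, 445.2 and 334.9, and mutant mice 345.8, 353.7 and 407.5. The lowest carrier was well above the highest wild-type mouse. The log2 difference was 0.71 (SE 0.123), with an unadjusted p of 8.11e-05 and an adjusted p of 0.45. A second of its probe sets, 1437837_x_at, also kept all carriers above wild-type at 0.54, while the other 3 differed by 0.16 to 0.21 with overlap.

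Hnrnpr, a nuclear RNA-binding protein, read 535.3, 636.5 and 643.8 in wild-type, 872.3, 916.6 and 968.2 in heterozygous and 954.6, 773.8 and 839.1 in mutant mice on 1437526_x_at. That is a difference of 0.53 (SE 0.105, adjusted p = 0.621), against 0.21 and 0.09 on its other tested probe sets. Pa2g4, which binds the ErbB3 receptor and ribosomal particles, read 289, 429.1 and 366.4 in wild-type, 613.7, 586 and 584.9 in heterozygous and 429.9, 508.9 and 638.2 in mutant mice on 1450854_at. Wild-type and carriers nearly touched there, since the highest wild-type mouse, at 429.1, and the lowest carrier, at 429.9, were less than 1 unit apart in the deposited signals. The difference was 0.61 (SE 0.126, adjusted p = 0.678), and the other 4 Pa2g4 probe sets lay between 0.02 and 0.16.

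Ino80b, a subunit of the INO80 chromatin remodelling complex, has 1 tested probe set. Wild-type mice gave 90.2, 109.7 and 129.1 units, heterozygous mice 162.9, 156.7 and 187.3, and mutant mice 188.6, 167.3 and 169.1. The signal was low but the groups were apart, with a difference of 0.58 (SE 0.126, adjusted p = 0.761). Calr, the calcium-binding chaperone calreticulin of the endoplasmic reticulum, read 1748.2, 1805.1 and 1929.5 in wild-type, 3205.7, 2567.3 and 2369.4 in heterozygous and 2456.1, 2213.7 and 3054.5 in mutant mice on 1417606_a_at, a difference of 0.52 (SE 0.117, adjusted p = 0.845). Its brighter probe sets differed by 0.10 and 0.18 with overlap. Bcl9, a coactivator of beta-catenin, read 423.9, 777.5 and 804.2 in wild-type against 970.5 to 1237.3 in carriers. The difference of 0.69 (SE 0.157, adjusted p = 0.845) leaned on the first wild-type mouse, and was 0.45 without it.

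Gid4, the substrate receptor of a ubiquitin ligase complex, was the gene of this direction whose probe sets gave the same value. On 1427066_a_at wild-type mice read 711.7, 681.8 and 728.2, heterozygous mice 853.1, 920.4 and 948.2, and mutant mice 988.7, 1013.7 and 983.7. The second probe set, 1438006_at, read 548.3, 561.8 and 600.8 in wild-type, 592, 747.3 and 806.2 in heterozygous and 822.9, 864.1 and 819.9 in mutant mice. Both gave a log2 difference of 0.41, with SEs of 0.0933 and 0.114 and adjusted p of 0.845 and 0.973, and on both every mutant mouse lay above every heterozygous mouse. On the second the groups were apart only after normalization.

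The last 5 were Sdcbp, Gja1, Prune1, Ppif and Tgfbi. Prune1, a phosphodiesterase, read 162.8, 318.8 and 406.9 in wild-type against 439.7 to 550.6 in carriers, a difference of 0.74 (SE 0.178). Its wild-type mice were spread widely, and without the first of them the difference was 0.46. Ppif, the mitochondrial cyclophilin of the permeability transition pore, gave 767.8, 739.6 and 646 in wild-type against 899.7 to 1750.1 in carriers on 1438955_x_at, a difference of 0.81 (SE 0.198), while 1416940_at differed by 0.02. Sdcbp, the scaffold protein syntenin, differed by 0.37 on 1 probe set and by -0.03 on the brighter one. Gja1, a gap junction connexin, differed by 0.48 on 1438973_x_at and by 0.05 to 0.22 on 4 others. Tgfbi, a secreted matrix protein, differed by 0.52 on 1456250_x_at, where the groups were apart only after normalization, and by -0.17 and -0.08 on its 2 probe sets not of that kind. The first gene outside the 12 was Vamp3, at 0.98 with a p of 0.00233, beside Tgfbi with a p of 0.00191.

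**Figure D2:**
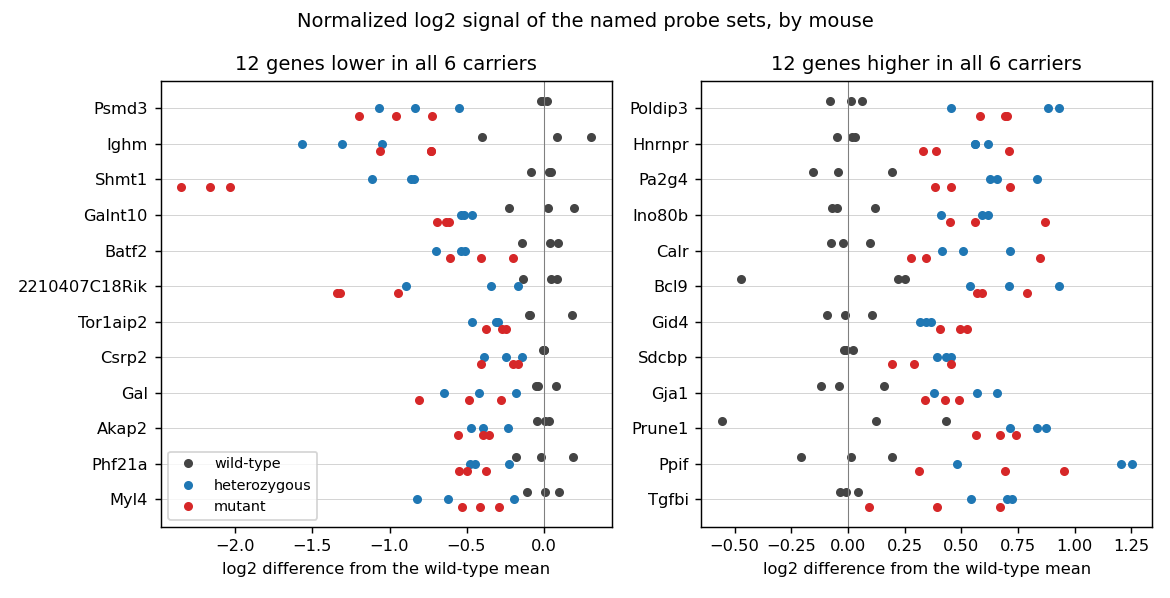
Normalized log2 signal of the 24 named probe sets, each point 1 mouse, as the difference from the mean of the 3 wild-type mice. The genes were chosen because carriers and wild-type do not overlap; in Shmt1, Galnt10 and 2210407C18Rik every mutant mouse lies below every heterozygous mouse, and in Gid4 every mutant mouse lies above.

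Other probe sets of the same genes are further readings of the same RNA. Those without overlap were themselves candidates for the choice, so they are no independent support. Being chosen by the smallest p, the named probe sets are by construction the extreme ones of their gene. Of the 12 higher genes, 9 had 22 other tested probe sets, of which 19 were above 0 and 3 below, with a median difference of 0.11 against 0.56 for the named ones. Of the 12 lower genes, 5 had 14 others, 7 below 0 and 7 above, with a median of -0.03 against -0.48. Without overlap in the same direction were 2 of the 22 and 1 of the 14, beside 1.2% above and 1.23% below over all probe sets.

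Probe sets whose names end in _x_at, which hold probes that can also match other transcripts, took a large part in the higher direction. They stood for 5 of the 12 higher genes and for none of the 12 lower ones. Over the whole array, 25 of 1048 tested _x_at probe sets, 2.39%, had all carriers above wild-type, against 138 of 12528 others, 1.1%. At an unadjusted p under 0.05 the shares on the higher side were 7.06% and 2.51%. In the lower direction the shares without overlap were 1.24% and 1.23%. The part that matches to other transcripts have in these values was not tested.

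**Figure D3:**
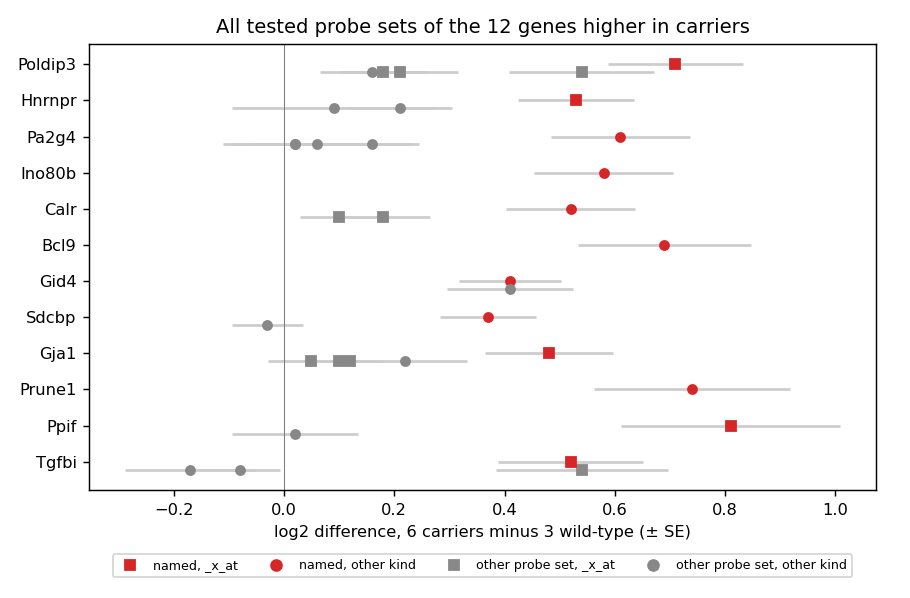
Log2 difference of carriers from wild-type with its SE for every tested probe set of the 12 genes higher in carriers, the named probe set in red and the others in grey, squares for _x_at names. Of the 22 grey points, 1437837_x_at of Poldip3 at 0.54, 1438006_at of Gid4 at 0.41 and 1437463_x_at of Tgfbi at 0.54 lie near the red ones; the others lie between -0.17 and 0.22.

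Pooling the carriers favours genes whose value is alike in both genotypes, and the test of mutant against heterozygous shows where it is not. Over all probe sets, 1027 had an unadjusted p under 0.05 in that comparison, 7.56%, and 3 passed the adjusted p of 0.05, 0.0221%. Of the 12 lower genes, Ighm, Shmt1 and 2210407C18Rik were under the unadjusted threshold, and Shmt1 passed. Of the 12 higher genes none was. The heterozygous difference from wild-type was larger than the mutant one in 10 of the 12 higher genes and in 5 of the 12 lower ones, both taken against the same wild-type arrays. The exceptions among the higher genes were Ino80b, with 0.54 in heterozygous and 0.63 in mutant mice, and Gid4, with 0.34 and 0.48.

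The other 2 probe sets that passed in mutant against heterozygous were Trim16 and Fmo2, described here after their values were seen. Trim16, a ubiquitin ligase, read 881.4, 866.6 and 975.3 on 1460629_at in wild-type, 487.6, 649.4 and 593.7 in heterozygous and 62.4, 70 and 65.4 in mutant mice. All carriers were below wild-type, and the mutant mean was 7.26% of the wild-type mean. Because the carriers were so far apart, the pooled difference of -2.06 had an SE of 0.707 and an adjusted p of 0.973, whereas mutant and heterozygous differed by -2.82 with an adjusted p of 1.56e-06. In the fit with 3 groups the pooled difference had an adjusted p of 9.82e-06. Its second probe set, 1452362_at, also had all carriers below wild-type, at -0.63 (SE 0.213). Fmo2, a flavin-containing monooxygenase, moved to opposite sides, at 246.6, 222.9 and 267.3 in heterozygous and 86.5, 90 and 119.1 in mutant mice around a wild-type range of 135.2 to 167.8, so that the pooled difference was 0.06.

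**Figure D4:**
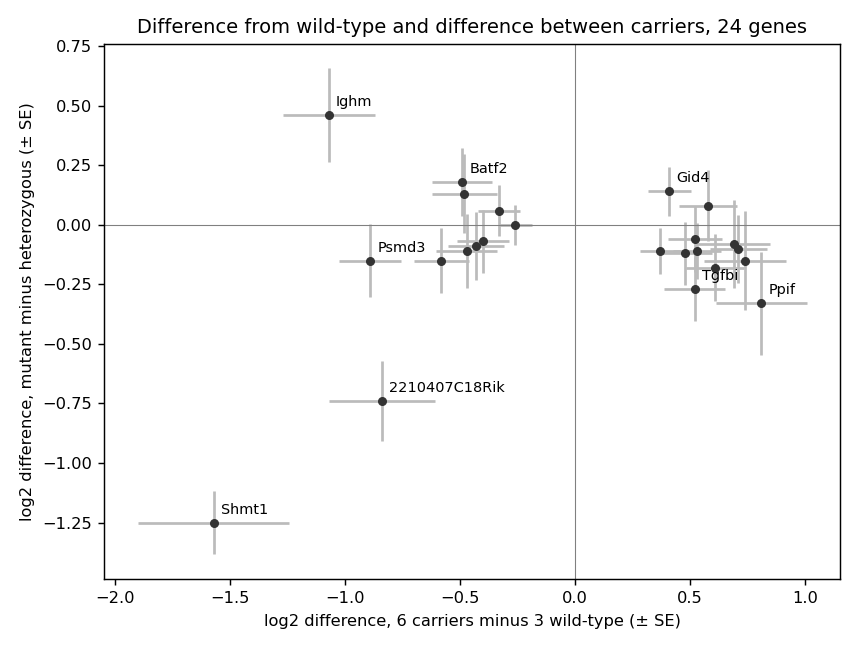
Log2 difference between mutant and heterozygous mice plotted against the log2 difference of all carriers from wild-type, with SEs, for the 24 named genes. Most lie near 0 on the vertical axis; Shmt1 at -1.25 and 2210407C18Rik at -0.74 are lower in mutant mice, and Ighm at 0.46 is higher.

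Shmt1 lies on chromosome 11 in the RefSeq mouse annotation. So do Psmd3, Galnt10, 2210407C18Rik and Myl4, which makes 5 of the 12 lower genes, and Gid4, which makes 1 of the 12 higher genes, while the chromosome holds 8.56% of the genes tested. By the brightest probe set of each gene, 13 of 702 genes on chromosome 11 had all carriers below wild-type, 1.85%, in a range of 0.337% to 1.99% over the chromosomes, beside 1.16% of all genes. Above wild-type were 7, 0.997%, beside 1.1%. Psmd3 and Myl4 are far from Shmt1, 1180 and 1478 annotated genes away, and 2210407C18Rik and Galnt10 are 108 and 158 away on the other side. Gid4 is 25 genes away and Trim16 65.

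Of 20 neighbours, 10 on each side with a tested probe set, 14 had values below 0 and 6 above, with a median of -0.09, beside 53.3% below 0 and a median of -0.01 over all genes. Gid4 and B9d1, a protein of the ciliary transition zone, were the neighbours without overlap, both above wild-type, 10% of the 20 beside 1.1% of all genes. B9d1 read 92.1, 102.4 and 95.2 in wild-type, 101.4, 162.1 and 159.3 in heterozygous and 122.1, 147.7 and 182.1 in mutant mice, a difference of 0.49 (SE 0.133, adjusted p = 0.973). In the deposited signals its lowest carrier lay within the wild-type range.

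Among 25 gene lists of pathways and cell types, each gene taken by its brightest probe set, the interferon-induced genes had the lowest median. These genes respond to interferons through STAT and IRF transcription factors and restrict viruses; in the gut they follow signals from microbes and immune cells. Of 35 tested members 34 were lower in carriers, with a median log2 difference of -0.73, and 21 had an unadjusted p under 0.05, beside 2.19% of all genes on the lower side. None passed the adjusted threshold, the smallest adjusted p being 0.973, and none had all carriers below all wild-type mice, beside 1.16% of all genes; in the deposited signals Mx1 did. This list was known from earlier results of these arrays to be low in both carrier genotypes, so its direction is no independent evidence.

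The same 2 carriers overlapped with wild-type in most members. The mean log2 signal of the list was 9.89, 9.29 and 9.34 in the wild-type mice, 7.93, 9.55 and 8.75 in the heterozygous mice and 9.54, 8.46 and 8.25 in the mutant mice. The second heterozygous and the first mutant mouse were inside the wild-type range, and the other 4 carriers below it. Gene by gene, the second heterozygous mouse was below all wild-type mice in 5 of 35 members and the first mutant mouse in 1, against 30 to 34 members in each of the other carriers. Parp14, an ADP-ribosyltransferase, read 1925.3, 1307.8 and 1444.1 in wild-type, 611.6, 1345.4 and 1077.2 in heterozygous and 1105.3, 836.4 and 825.4 in mutant mice, a difference of -0.70 (SE 0.203, adjusted p = 0.973). Mx1, an antiviral GTPase, read 338.9, 308.7 and 399.8 in wild-type and 106.9 to 289.5 in carriers. It differed by -0.78 (SE 0.247) and the chemokine Cxcl10 by -0.80 (SE 0.291), both with an adjusted p of 0.973. Cxcl10 gave 140.8, 146.7 and 108.1 units in wild-type, 28.3, 108.8 and 71.8 in heterozygous and 109.5, 59 and 67.2 in mutant mice. The same pair of carriers was again level with the lowest wild-type mouse.

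Single mice moved the number of members at an unadjusted p under 0.05 widely. It was 2 of 34 without the first wild-type mouse, 5 of 35 without the second or the third mutant mouse, 8 without the first heterozygous mouse, 11 without the third wild-type and 12 without the third heterozygous mouse. It was 27 of 35 without the second heterozygous and 28 of 34 without the first mutant mouse. The median stayed between -0.90 and -0.52 in all of these and in the set without the 3 arrays numbered 1, where 9 of 34 were counted. With all arrays the count was 9 with eBayes without the trend, 8 with robust eBayes and 15 in the fit with 3 groups.

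Promoters of interferon-induced genes often hold the sequence read by IRF and STAT complexes, described here as 2 copies of GAAA that are 2 bases apart, or TTTC likewise on the other strand. RefSeq promoters, from 250 bases before to 50 bases after the gene start on GRCm38.p6, matched 28 of the 35 tested members, and 14 of the 28, 50%, held the motif on either strand. Of all 27025 genes of the table, 1079 did, 3.99%. The match is a description of letters and not of binding. The sequences of the 3 members with the smallest p that hold a match are shown 5' to 3' on the gene's strand, with the motif in capitals. They lie at chr5:92348840-92349139 on the minus strand for Cxcl10, chr12:26456403-26456702 on the minus strand for Rsad2, and chr19:34583279-34583578 on the plus strand for Ifit3.
Cxcl10: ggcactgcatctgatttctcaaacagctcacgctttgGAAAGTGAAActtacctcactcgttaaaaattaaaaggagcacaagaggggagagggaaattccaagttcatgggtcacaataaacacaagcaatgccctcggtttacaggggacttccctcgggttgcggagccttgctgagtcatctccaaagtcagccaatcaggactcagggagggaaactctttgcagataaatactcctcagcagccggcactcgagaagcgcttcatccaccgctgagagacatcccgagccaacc
Rsad2: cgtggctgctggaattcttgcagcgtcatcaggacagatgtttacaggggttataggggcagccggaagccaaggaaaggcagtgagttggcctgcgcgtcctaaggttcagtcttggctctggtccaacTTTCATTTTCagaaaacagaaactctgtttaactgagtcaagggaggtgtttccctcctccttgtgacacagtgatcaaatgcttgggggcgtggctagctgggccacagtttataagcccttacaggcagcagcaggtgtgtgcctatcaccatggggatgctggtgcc
Ifit3: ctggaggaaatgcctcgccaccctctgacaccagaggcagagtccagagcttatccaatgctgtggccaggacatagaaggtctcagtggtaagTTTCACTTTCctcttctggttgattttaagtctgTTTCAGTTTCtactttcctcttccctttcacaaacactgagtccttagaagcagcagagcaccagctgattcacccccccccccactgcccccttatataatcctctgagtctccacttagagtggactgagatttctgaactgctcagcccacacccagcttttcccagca

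Cxcl10 carries 1 match, 213 bases before the gene start, and Rsad2 1 match at 120 bases before it. Ifit3 carries 2, at 156 and 122 bases before the start. Rsad2, the antiviral enzyme viperin, read 2115.2, 1302.4 and 1615.3 in wild-type, 208.9, 1456.5 and 703 in heterozygous and 1617.5, 495.4 and 401.5 in mutant mice, a difference of -1.33 (SE 0.505). Ifit3, which binds foreign RNA with its relatives, read 555.7, 324.6 and 355.6 in wild-type, 89.4, 507.3 and 167.8 in heterozygous and 292.6, 147.8 and 110.6 in mutant mice, a difference of -1.06 (SE 0.431). On the normalized scale 4 carriers were below all wild-type mice in each of Cxcl10, Rsad2 and Ifit3, namely all but the second heterozygous and the first mutant mouse.

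The 7 tested markers of T and cytotoxic lymphocytes had a median of -0.60, with 6 lower, 2 at an unadjusted p under 0.05, beside 2.19% of all genes, and none without overlap. None was under that threshold without the first or the second wild-type, the first heterozygous, the second mutant or the third mutant mouse, nor with robust eBayes. The median was -1.08 without the third wild-type mouse and -0.40 without the 3 arrays numbered 1. Their mean log2 signal was 8.96, 8.54 and 8.11 in wild-type, 6.80, 8.73 and 8.30 in heterozygous and 8.54, 7.61 and 7.16 in mutant mice. The first heterozygous and the second and the third mutant mice, low for interferon-induced genes, were the 3 carriers below wild-type here as well. Cd8a, the coreceptor of cytotoxic T cells, read 267, 201.1 and 210.4 in wild-type, 40.5, 266.1 and 174.9 in heterozygous and 134, 75.1 and 56.7 in mutant mice, a difference of -0.99 (SE 0.417). The chemokine Ccl5 differed by -1.02 (SE 0.454) and the T cell receptor component Cd3d by -0.60 (SE 0.288), each with an adjusted p of 0.973. In whole colon, fewer cells of a type and less RNA per cell cannot be told apart, and the part of these cells in the interferon values was not tested.

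The 12 tested genes of antigen presentation were all lower in carriers, with a median of -0.21 and 6 at an unadjusted p under 0.05, beside 2.19% of all genes. That count fell to 1 without the third wild-type, the first heterozygous, the second mutant or the third mutant mouse, and to 2 without the first wild-type mouse; eBayes without the trend also gave 1. Tap2, which pumps peptides into the endoplasmic reticulum for MHC class I, was the member with all carriers below wild-type, beside 1.16% of all genes. It read 119.7, 121.3 and 143.3 in wild-type, 82.3, 114.4 and 118.4 in heterozygous and 91.5, 93.5 and 99.5 in mutant mice, a difference of -0.32 (SE 0.119, adjusted p = 0.973). H2-K1, a class I heavy chain, differed by -0.32 (SE 0.137) and Cd74, the class II invariant chain, by -0.39 (SE 0.171), with overlap.

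B and plasma cell markers gave list means of 10.86 to 11.05 in wild-type and 10.56 to 10.89 in carriers, with 5 of the 6 below the whole wild-type range. All 6 tested members were below 0 with a median of -0.10, and Ighm alone was under the unadjusted threshold. Ighm, at -1.07 on the probe set named above for its lack of overlap, carried most of the shift: without it the means were 11.16 to 11.29 in wild-type and 10.98 to 11.27 in carriers, with 4 of the 6 below. Igha and Jchain, the heavy chain and joining chain of secreted immunoglobulin A, differed by -0.07 (SE 0.0503) and -0.11 (SE 0.0927). Of 16 macrophage and myeloid markers 13 were below 0, with a median of -0.13 and none under an unadjusted p of 0.05.

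**Figure D5:**
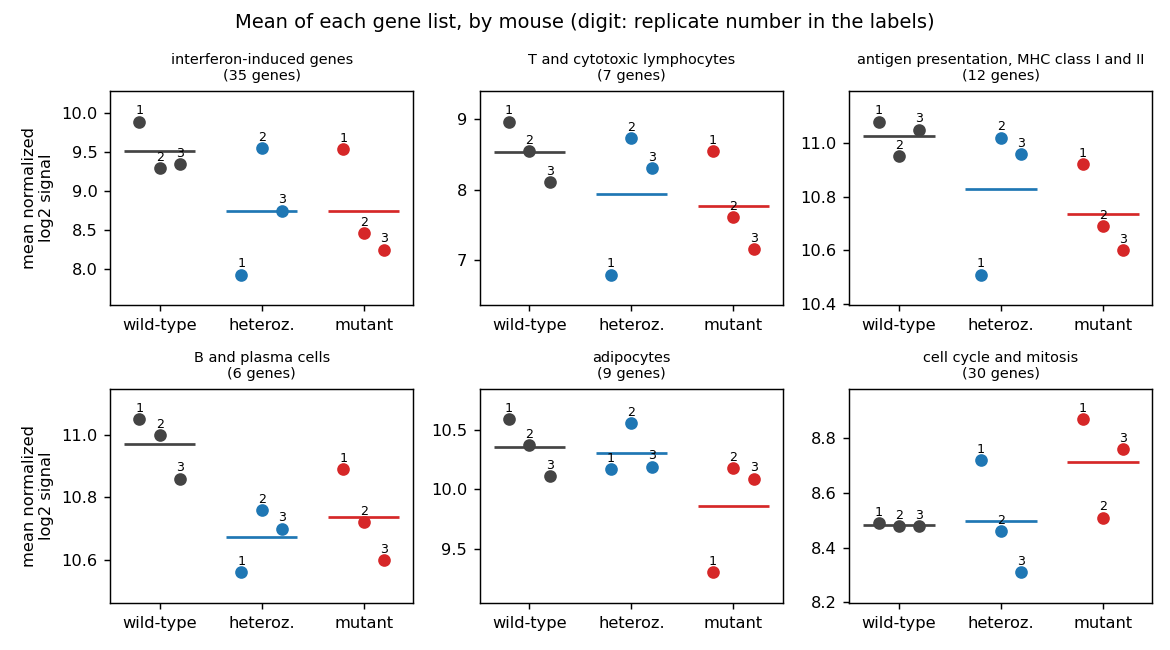
Mean normalized log2 signal of the tested genes of 6 lists, 1 point per mouse with its replicate number, and the mean of each genotype as a line. In the interferon-induced, T lymphocyte and antigen presentation lists the first heterozygous and the second and the third mutant mice are low, while the second heterozygous mouse lies within the wild-type range; the first mutant mouse stands apart in the adipocyte list at 9.30.

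The folate and methyl pathways showed no shared shift around the altered gene. Of 12 tested folate one-carbon genes 7 were lower and 5 higher, with a median of -0.02, and Shmt1 was the one under an unadjusted p of 0.05. Shmt2 read 158.3, 122.6 and 140.9 in wild-type against 135.8 to 213.9 in carriers, a difference of 0.19 (SE 0.184) with overlap. Aldh1l1, which oxidises formyltetrahydrofolate, differed by -0.33 (SE 0.183), and Gart, a purine synthesis enzyme that uses it, by -0.17 (SE 0.113). In the list of methionine, choline and methylation 14 of 23 were higher, with a median of 0.04. Ahcyl2, a relative of the enzyme that hydrolyses S-adenosylhomocysteine, had all carriers above wild-type, at 2853.5 to 3768.4 against 2701.1 to 2837.3, a difference of 0.20 (SE 0.0653). Over all genes, 1.1% had all carriers above wild-type. The maintenance DNA methyltransferase Dnmt1 differed by -0.16 (SE 0.0697), with overlap, and the de novo methyltransferase Dnmt3b by 0.19 (SE 0.119).

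Nucleotide synthesis genes were higher in 17 of 24 with a median of 0.03. Dck, the salvage kinase of deoxycytidine, read 369.5, 636.6 and 465.7 in wild-type, 923, 709.9 and 580.6 in heterozygous and 672.6, 599 and 698.1 in mutant mice, a difference of 0.49 (SE 0.172, adjusted p = 0.973). The highest wild-type mouse lay above the lowest 2 carriers. Of 30 cell cycle genes 23 were higher with a median of 0.12, which was 0.01 in heterozygous and 0.21 in mutant mice. It was 0.06 without the first mutant mouse, 0.07 without the first heterozygous or the third mutant mouse, and 0.01 without the 3 arrays numbered 1, where 16 were higher and 13 lower. Nek2, a centrosome kinase, had all carriers above wild-type after normalization at 0.45 (SE 0.144), from 44.4 to 70.5 units in wild-type and 64.1 to 106.5 in carriers. Every wild-type signal of Nek2 lay under the filter cut-off of 75.5, so it was tested only through its brighter carriers. Its lack of overlap is therefore no support for a difference. Pcna, the sliding clamp of DNA replication, had all carriers below, at 1461 to 1853.8 against 1859.7 to 1936.2, a difference of -0.18 (SE 0.0816). Each was 1 of 30 members, while over all genes 1.1% had all carriers above wild-type and 1.16% below. Members of the list thus lay on both sides.

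Serine synthesis and ATF4 response genes had a median of -0.02 over 18 members. Aldh18a1, the first enzyme of proline synthesis, read 1409.2, 860 and 991.3 in wild-type against 1195.4 to 2050.6 in carriers, a difference of 0.61 (SE 0.183, adjusted p = 0.973), and the chaperone Hspa5 differed by -0.25 (SE 0.1). Hspa5 and Calr, both chaperones of the endoplasmic reticulum, thus had opposite signs on the probe sets given. In the list of the Wnt pathway and crypt base, with a median of 0.01 over 12 genes, Sox9, a transcription factor of crypt progenitors, had all carriers below wild-type after normalization, at -0.29 (SE 0.0966, adjusted p = 0.973). It read 3045.1, 2261.3 and 2201.7 in wild-type and 1679 to 2271.3 in carriers, so that the deposited signals overlapped. Over all genes, 1.16% had all carriers below wild-type. Medians of the p53 and DNA repair, circadian clock and cholesterol and fatty acid lists were 0.01, 0.00 and -0.02.

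In the fibroblast, adipocyte and smooth muscle lists the heterozygous and mutant medians differed. Of 19 fibroblast and matrix genes 16 were below 0; the median of -0.09 was -0.26 in heterozygous and 0.01 in mutant mice. Col3a1, a fibrillar collagen, differed by -0.40 (SE 0.163) and the basement membrane collagen Col4a1 by -0.29 (SE 0.128), both with an adjusted p of 0.973. All 9 adipocyte genes were below 0, with a median of -0.29, at -0.02 in heterozygous and -0.59 in mutant mice, and none under an unadjusted p of 0.05. Without the first mutant mouse the median was -0.13, with 8 lower and 1 higher, and without the 3 arrays numbered 1 it was 0, with 4 lower and 5 higher. The lipase Lpl read 3881.6, 2734 and 2884.2 in wild-type and 1334.4 to 2949.9 in carriers, the lowest being the first mutant mouse. Of 13 smooth muscle genes 9 were below 0 (median -0.08), and Tagln differed by -0.17 (SE 0.0729) and Myh11 by -0.12 (SE 0.0554). Of 8 enteric neuron and glia genes 7 were below 0 (median -0.11).

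Epithelial lists had medians near 0. Absorptive colonocyte genes had a median of -0.02 over 18, goblet cell genes -0.03 over 10 and enteroendocrine genes 0.00 over 11. Among them the adhesion protein Cdh1 was the one member under an unadjusted p of 0.05, at 0.15 (SE 0.0612). Over all genes, 2.39% were under that threshold on the higher side, a share near this one. A median near 0 does not mean that each member was alike across mice. In the colonocyte list Aqp8 ran from 107.7 to 526.1 units in wild-type and from 30 to 645.8 in carriers. Aqp4 ran from 1634 to 2824.4 and from 482 to 3350. The goblet cell product Retnlb, an antimicrobial protein, read 7051.8, 5457.3 and 6053.6 in wild-type, 2207.4, 3580.7 and 5351.9 in heterozygous and 6723, 5309.7 and 5373.4 in mutant mice. The difference of -0.39 (SE 0.275) lay in the heterozygous mice. The medians were -0.02 for 9 endothelial and 0.00 for 6 small intestine genes, and the lists of exocrine pancreas and blood had 1 tested gene each, at -0.10 and 0.13.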

How the data were processed

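The authors deposited intensities, linear signals with 1 value for each probe set on each array. GCOS, software of the array's maker, appears in the submitters' processing notes. Its version and scaling: not given in the sources used here. RNA had been amplified with the NuGEN Ovation kit from about 50 ng per colon, per the labels' protocols. From the deposited intensities, log2(signal + 16) was taken, the 64 control probe sets were removed and the arrays were quantile normalized, because array medians of the log2 values spread over 0.294. Values per mouse in the text are deposited signals; differences, overlap and tests are on the normalized log2 scale, where the added 16 makes differences of dim probe sets smaller. Probe sets whose mean was under the 40th percentile (signal 75.5) were left out, leaving 13576 of 22626. Of these, 12489 had 1 gene symbol in the platform annotation, 448 several and 639 none; probe sets with several or none were counted and not named.

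limma 3.58.1 (R 4.3.3; lmFit, eBayes with trend) compared 6 carrier with 3 wild-type arrays, with 7 residual degrees of freedom and Benjamini-Hochberg adjustment over all 13576. A fit with 3 groups gave the genotypes side by side. The fit was first tested on simulated data with independent noise, and the mark for recovery was set only at the largest difference simulated. Those data held no shared deviations of same-numbered arrays, so the test does not show how the fit handles them. For each of 8201 genes the brightest probe set, by mean log2 signal, stood for it in lists; its difference was not adjusted separately. Named were Shmt1, the 12 genes per direction with the smallest p among those without overlap (a gene by its probe set with the smallest p), the leading 3 members of each list as described, the 10 genes on each side of Shmt1 and the first gene outside each 12; further genes were added to show a value. The comparison, the 25 lists (499 names, 430 on the array including 2 by synonym, 362 tested) and the rules were chosen with earlier results of these data known. Promoters and gene order came from RefSeq tables of GRCm38.p6. The replicates are separate colons per the series' description. Figures were drawn with matplotlib 3.10.9 (Python 3.11.15). Alternative settings were values as deposited, median centring, other filters and pseudocounts, other eBayes settings, the fit with 3 groups, array weights, the replicate number as a block, the actin ratio as a covariate, leaving out arrays, and, chosen after seeing the data, leaving out _x_at and _s_at probe sets.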

Additional observations from a re-analysis of the deposited data

Results flagged for a closer look

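The mean log2 signal of the 9 adipocyte genes was 9.30 in the first mutant mouse, and the nearest of the other 5 carriers was at 10.09. The gap was 0.63 of the carriers' whole range. It was the 1 value that stood apart this way among 52 named probe sets and lists examined in the carriers, at a cut-off of 0.625. Chance gives about 1 in 20 of the items examined, so 1 in 52 is not more than chance gives. That mouse was also one of the 2 carriers inside the wild-type range for interferon-induced genes.

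Shmt1 on 1425177_at differed between the carrier genotypes by -1.25 on the log2 scale, mutant minus heterozygous, with a limma adjusted p of 0.00939, and every mutant mouse was below every heterozygous mouse. Trim16 on 1460629_at differed by -2.82 with an adjusted p of 1.56e-06, likewise in all 3 mutant mice. For both, the pooled carrier difference averages unequal genotypes.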

How the results depend on the processing

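The count of 0 probe sets called held in most settings. The fit with 3 groups called 2 lower, Shmt1 1425177_at and Trim16 1460629_at. Array weights called 73 higher and 32 lower, among them 20 of the 24 named genes; the weights ran from 0.505 to 8.62, and the highest belonged to the second wild-type array, so that array largely set the wild-type level. Leaving out 1 array called 0 to 1 higher (1 without the first wild-type, a probe set of Morf4l1 and Morf4l1b, and 1 without the second mutant array, of Tuba1c and Gm6682) and 0 lower. Probe sets without overlap numbered 102 lower in the values as deposited, 110 lower with a filter at the 60th percentile, 275 higher and 256 lower without a filter, and 588 and 646 without the 3 arrays numbered 1; leaving out 1 array gave 183 to 508 higher and 186 to 461 lower, since fewer arrays overlap less. Shmt1 on its brightest probe set ranged from -0.71 to -0.46 with 1 array left out. Adjusted p of the 24 named genes ran from 0.000202 to 1 over all settings; that their sign stayed is fixed by how they were chosen. Of 599 list medians 589 moved by less than the spread of the list mean between mice, pooled within wild-type and within the 6 carriers. That spread includes the difference between heterozygous and mutant mice, so it is not a spread between replicates alone. Without the third wild-type array, or the second mutant one, 65.2% and 65.1% of probe sets under an unadjusted p of 0.05 were higher, against 57.5% with all arrays; the exocrine pancreas and blood lists have 1 tested gene, and blood none at the 60th percentile. Same-numbered mice deviated together in some pairs: 5 of 9 correlations exceeded 0.1 (-0.059 to 0.464), and 6 of 9 arrays correlated best with their own number. The actin ratio also followed the replicate number in each genotype, and the main fit did not include that number. The replicate block gave 0 calls, 907 probe sets under an unadjusted p of 0.05 against 677, -0.57 for Shmt1, and 11 of 35 interferon-induced genes under an unadjusted p of 0.05 against 21.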
